A study of Mus musculus with 6 samples.

Results

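The genes described here are 7 surface molecules that restrain lymphocytes, Pdcd1, Lag3, Havcr2, Tigit, Ctla4, Cd160 and Entpd1, and the nuclear factor Tox. They were taken by name from the count matrices and make up 8 of 34187 gene features. Their mRNA was followed in T cells and natural killer (NK) cells from mouse pancreatic tumors, across the cell clusters named by the authors and across 3 treatments.

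Inhibitory receptors are induced when a lymphocyte is activated and dampen signalling through the antigen receptor or through activating NK receptors. A T cell that meets antigen for a long time in a tumor carries several of them at once, a state called exhaustion, and TOX is a chromatin factor that helps to set up that state. Regulatory T cells (Treg) carry many of the same molecules constitutively, so that a high level does not by itself mark an exhausted cell.

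C57BL/6 mice carried subcutaneous tumors grown from 6694c2vTRP1 cells, a pancreatic cancer line. They were given PBS, 26 µg of mono-IL10 (a monomeric form of the cytokine IL-10) or 30.6 µg of IL10/2-Trikine (IL-10 joined to a part that binds the beta chain of the IL-2 receptor as well) by the intraperitoneal route. Dosing began on day 8, 2 doses were given, and tumors were taken on day 14. CD45+ cells were isolated with beads, each mouse was marked with a hashtag antibody, and the mice of a treatment were pooled into 1 library for 5' single-cell RNA sequencing, so that treatment and library cannot be told apart. The labels state 5 mice for each cytokine group and 5 hashtags were present in the PBS library, giving 15 mice.

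The 3 libraries held between 364814102 and 515236552 gene UMIs (unique molecular identifiers, 1 per captured mRNA molecule). The authors' cell table annotated 2084 T and NK cells of these libraries in 12 clusters, and 1383 of them carried a mouse. The median annotated cell held 2780 UMIs in the PBS library, 3959 under mono-IL10 and 2635 under IL10/2-Trikine. Libraries shared between 408 and 700 barcodes, none of them annotated in both. Levels are given as CPM, counts per 1e6 UMIs summed over the cells of a mouse or cluster. These data do not tell apart a smaller number of cells that carry a transcript from fewer molecules in each cell unless cells are counted as below.

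The cluster names were checked against marker genes fixed for this work. Clusters named NK, Cycling_NK, Treg, act_CD4T (activated CD4 T cells) and naive_CD8T carried the markers of their names. The name naive_CD8T is used as the authors' label only. Of these cells 60.5% held a Ctla4 UMI, 26.5% a Pdcd1 UMI and 1.5% a Havcr2 UMI. The cluster named Cycling_T did not in the IL10/2-Trikine library, where 128 of its 174 cells held more NK than T marker UMIs, against 16 of 55 in PBS and 18 of 120 under mono-IL10. The naive_T cluster held 25 cells with few T marker UMIs (612 CPM over the 5 T markers in mono-IL10, against 3464 CPM in all T cells of that library).

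All 8 genes were detected, from 174 UMIs of Havcr2 to 3041 UMIs of Ctla4 over the annotated cells. A Havcr2 UMI was found in 5.76% of the cells and a Ctla4 UMI in 52.7%. Lag3 was found in 19.3%, Pdcd1 in 20.2%, Tigit in 31.3%, Tox in 35.4%, Cd160 in 17.0% and Entpd1 in 12.1%.

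**Figure D1:**
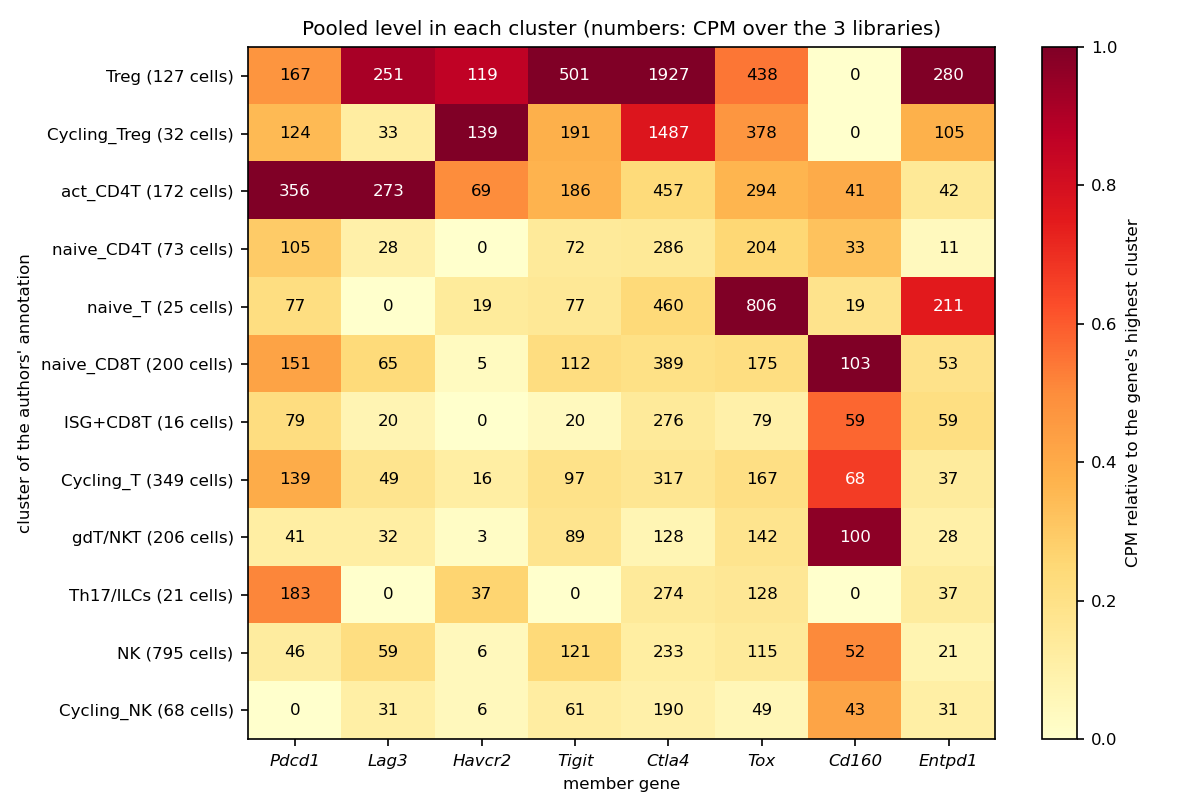
Level of each of the 8 genes (columns) in each of the 12 annotated clusters (rows), in CPM of the summed UMIs of the 3 libraries, shown as a heat map with the values printed. The Treg row holds the highest or second highest value of 6 of the 8 genes, Pdcd1 and Lag3 peak in act_CD4T, and Cd160 is at 0 in Treg.

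Among clusters with values over mice, Ctla4, Tigit, Entpd1, Havcr2 and Tox had their highest mean in Treg. Pdcd1 and Lag3 had it in act_CD4T and Cd160 in gdT/NKT, and several of these clusters overlapped with the next one. These levels describe the authors' clusters, which were made from these cells, and are given without a test. The mice behind them came from the treatments in proportions that differed between clusters. The part of treatment in the order of the clusters and in the SD was not tested. Ctla4 encodes the receptor that competes with CD28 for B7 ligands. It was at 1927 CPM in Treg and 1487 in Cycling_Treg, then at 460.4 in the 25 cells of naive_T, 457 in act_CD4T and 389 in naive_CD8T. Cycling_T was at 317 CPM and NK at 233, and the lowest level was 128 CPM in gdT/NKT. Over mice with at least 5 cells of a cluster, Ctla4 was at 1988 CPM ± 381 (SD, n = 9 mice) in Treg and 491 CPM ± 159 (SD, n = 9) in act_CD4T. This step down was larger than the spread over mice, and no later neighbours in the order of Ctla4 differed beyond their spread. A Ctla4 UMI was present in 90.6% of the Treg cells and in 45.0% of the cells in the NK cluster.

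Tigit encodes a receptor for the nectin family protein CD155. It followed Ctla4 in being highest in Treg, at 538 CPM ± 252 (SD, n = 9) against 140.3 CPM ± 86.6 (SD, n = 9) in act_CD4T. The NK cluster, the largest with 795 cells, held 121 CPM of Tigit and 362 of its 1039 UMIs. Entpd1 encodes CD39, the ectoenzyme that breaks down extracellular ATP. It stood at 259 CPM ± 142 (SD, n = 9) in Treg and at 54.5 CPM ± 54.9 (SD, n = 9) in naive_CD8T, the next cluster with values over mice. Havcr2, which encodes TIM-3, was at 125 CPM ± 55.4 (SD, n = 9) in Treg, 68.9 CPM ± 38.7 (SD, n = 9) in act_CD4T and 13.7 CPM ± 14.4 (SD, n = 14) in Cycling_T. Its drop below act_CD4T exceeded the spread, whereas Treg and act_CD4T overlapped.

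Pdcd1 encodes PD-1, the receptor for PD-L1 and PD-L2. Among clusters with values over mice, its highest level was in act_CD4T, at 333 CPM ± 130 (SD, n = 9), followed by Treg at 197 CPM ± 130 (SD, n = 9) and Cycling_T at 136 CPM ± 81.9 (SD, n = 14). Those neighbours overlapped. No Pdcd1 UMI was seen in the 68 Cycling_NK cells, which allows up to 11.3 CPM by an exact Poisson interval that covers counting error only. Lag3, which encodes a receptor for MHC class II, was at 297 CPM ± 193 (SD, n = 9) in act_CD4T and 239 CPM ± 151 (SD, n = 9) in Treg, and pooled values of all other clusters were 64.8 CPM or lower. Cd160 encodes a receptor of NK cells, gamma delta T cells and cytotoxic T cells. It was highest outside Treg, with pooled values of 103 CPM in naive_CD8T, 99.7 in gdT/NKT, 68.2 in Cycling_T and 59.2 or lower in the other clusters (NK 52.0). Over mice it was at 105 CPM ± 72.8 (SD, n = 12) in gdT/NKT and 76.0 CPM ± 67.0 (SD, n = 9) in naive_CD8T, which overlapped. No Cd160 UMI was found in 127 Treg cells, which allows up to 11.0038 CPM. Tox was spread more widely. It was at 806 CPM in the 25 cells of naive_T, 438 in Treg, 378 in Cycling_Treg, 294 in act_CD4T and 204 in naive_CD4T, and at 175 or lower in the other clusters (NK 115).

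**Figure D2:**
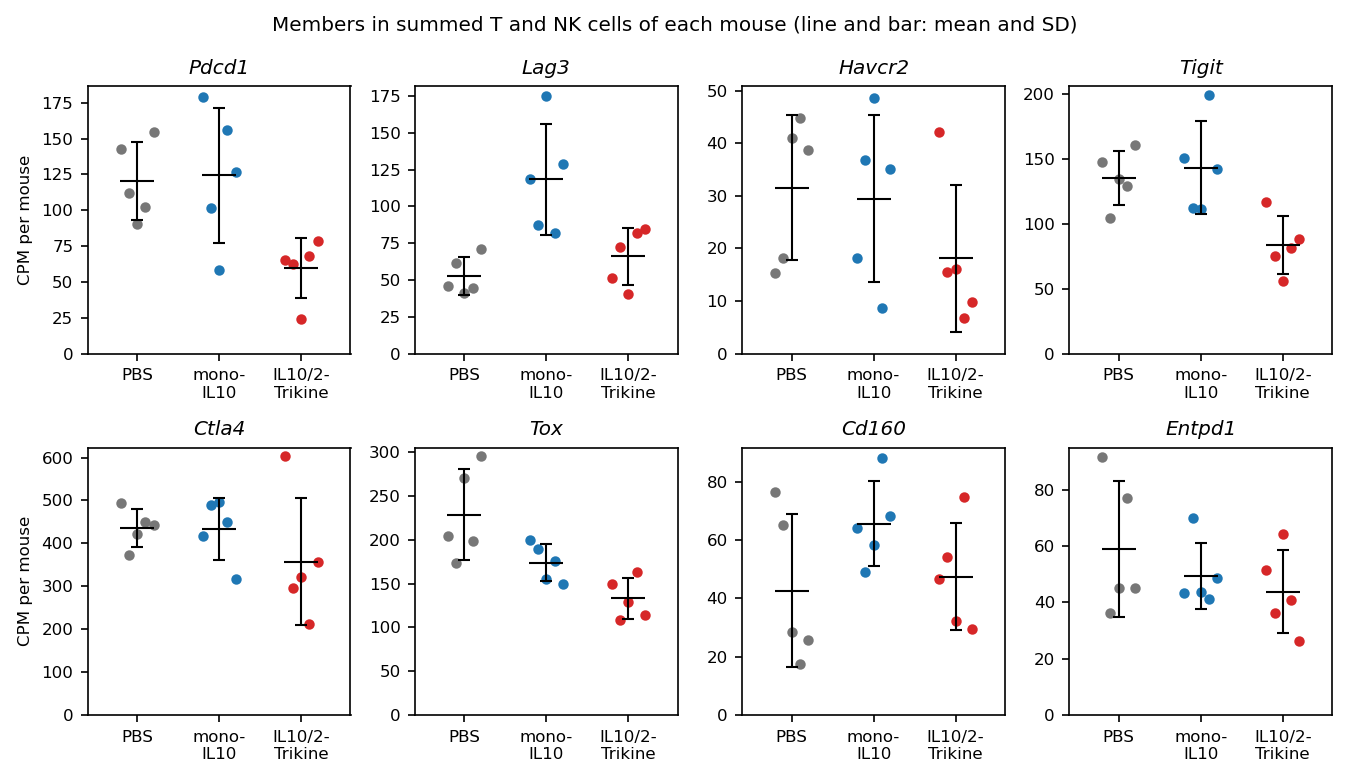
Level of each gene in the annotated T and NK cells of every mouse, in CPM, with 1 panel per gene and the 3 treatments on the horizontal axis. Points are mice (5 per treatment), and bars show the mean ± SD. The IL10/2-Trikine mice lie below all PBS mice for Pdcd1 and Tox, and the mono-IL10 mice lie above all PBS mice for Lag3.

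In the T and NK cells of each mouse as a whole, the mice given IL10/2-Trikine had less Pdcd1 and Tox mRNA than those given PBS, and less Pdcd1, Tigit, Lag3 and Tox than those given mono-IL10. The mice given mono-IL10 had more Lag3 than those given PBS. Counts were summed per mouse and tested with edgeR across 4595 genes. Against PBS, 2 of the 8 genes were lower under IL10/2-Trikine and 0 higher, where 4.79% of all genes tested were lower and 9.42% were called in either direction. Against mono-IL10, 4 of the 8 were lower and 0 higher, where 4.94% of all genes were lower and 8.86% were called. Between mono-IL10 and PBS, 1 of the 8 was higher and 0 lower, where 0.696% of all genes were higher and 1.11% were called. The median log2 fold change of the 8 genes was -0.59 when IL10/2-Trikine was set against PBS and -0.53 when set against mono-IL10, and the median of all genes was -0.0128 and -0.00219. Both contrasts share the IL10/2-Trikine mice, and the contrasts with PBS share the PBS mice.

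Pdcd1 was at 143, 112, 90.0, 102 and 154 CPM in the PBS mice and at 179, 102, 58.4, 156 and 127 CPM in the mono-IL10 mice. In the IL10/2-Trikine mice it was at 65.5, 62.1, 24.1, 68.1 and 78.4 CPM. All 5 IL10/2-Trikine mice lay below all PBS mice, while 1 mono-IL10 mouse, at 58.4 CPM, fell within their range. The log2 fold change was -1.12 ± 0.24 (SE) against mono-IL10 (edgeR adjusted p = 0.00373) and -0.86 ± 0.27 against PBS (edgeR adjusted p = 0.0489). The contrast with mono-IL10 passed the threshold with any 1 mouse left out (edgeR adjusted p from 0.000803 to 0.0187). The contrast with PBS was at the threshold: it was lost in 8 of 10 fits that left out 1 mouse (edgeR adjusted p up to 0.110), namely those without PBS replicate 1, 2, 4 or 5 or IL10/2-Trikine replicate 1, 2, 3 or 4. It was also lost with totals thinned to the lowest (log2 fold change -0.82, edgeR adjusted p = 0.148).

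Tigit was at 148, 105, 135, 129 and 161 CPM in PBS and at 151, 112, 112, 199 and 142 CPM in mono-IL10. In IL10/2-Trikine it was at 117, 75.1, 56.3, 81.7 and 88.2 CPM, and 4 of the 5 mice lay below every mouse of both other groups. The exception was replicate 1, whose share of Treg is given with Ctla4 below. The log2 fold change was -0.84 ± 0.19 (SE) against mono-IL10 (edgeR adjusted p = 0.00427, and 0.0273 or less with any 1 mouse left out). Against PBS it was -0.63 ± 0.21 (edgeR adjusted p = 0.0584), which did not pass. This value was near the threshold and did pass with no filter on low counts (edgeR adjusted p = 0.0480), with the replicate block (0.0461), with thinned totals (0.04995) and with only both groups fitted (0.0413).

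Pdcd1 and Tigit, the receptors whose difference between both cytokines passed with any 1 mouse left out, are shown with the sequence around their start sites. The motif searched was GGAAA, the core bound by NFAT, a factor switched on by the antigen receptor. RefSeq promoters of build GRCm38.p6 (250 bases before to 50 after the start) were matched for 6 of the 8 genes. The capitals mark GGAAA on either strand, and they read TTTCC where the match is on the opposite strand.
Pdcd1, chr1:94052504-94052803, minus strand: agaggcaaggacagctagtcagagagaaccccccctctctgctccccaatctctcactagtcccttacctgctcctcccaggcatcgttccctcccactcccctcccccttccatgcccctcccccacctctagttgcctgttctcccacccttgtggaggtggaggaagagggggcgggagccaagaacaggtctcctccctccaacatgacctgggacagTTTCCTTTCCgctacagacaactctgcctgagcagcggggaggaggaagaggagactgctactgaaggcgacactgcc
Tigit, chr16:43664135-43664434, minus strand: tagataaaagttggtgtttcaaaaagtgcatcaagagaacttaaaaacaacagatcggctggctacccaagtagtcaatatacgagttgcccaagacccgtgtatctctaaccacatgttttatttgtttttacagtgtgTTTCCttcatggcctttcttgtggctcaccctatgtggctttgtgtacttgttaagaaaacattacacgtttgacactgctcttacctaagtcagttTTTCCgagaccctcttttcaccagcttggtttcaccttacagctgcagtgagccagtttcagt
In Pdcd1 the motif began at -28 and -23 from the start site, in tandem, and in Tigit at -110 and -13. A match is a description of the letters only: 61.3% of 32851 promoters of the same length held GGAAA. Ctla4, Entpd1 and Cd160 also held it, and the Havcr2 window did not. TTCNNNGAA, the core bound by STAT proteins, was found in 1 promoter of Cd160 (at -234) and in none of the others matched, against 8.30% of all promoters.

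Tox was at 204, 174, 270.1, 199 and 296 CPM in PBS, at 199.996, 189, 156, 175 and 149.96 CPM under mono-IL10 and at 149.8, 109, 129, 163 and 114 CPM under IL10/2-Trikine. All IL10/2-Trikine mice were below all PBS mice, and the mono-IL10 mice lay between and overlapped with both. The log2 fold change of IL10/2-Trikine against PBS was -0.78 ± 0.16 (SE; edgeR adjusted p = 0.00296), and it passed with any 1 mouse left out (edgeR adjusted p up to 0.0188). Against mono-IL10 it was -0.50 ± 0.15 (edgeR adjusted p = 0.0422). That call was lost in 6 of 10 fits that left out 1 mouse (edgeR adjusted p up to 0.165, without mono-IL10 replicate 1, 2 or 4 or IL10/2-Trikine replicate 2, 3 or 5) and with DESeq2 (adjusted p = 0.0704). It was also lost with the replicate block (edgeR adjusted p = 0.0775).

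Lag3 was at 45.9, 61.5, 40.9, 44.7 and 70.8 CPM in PBS and at 119, 87.6, 175, 81.7 and 129 CPM in mono-IL10, with no overlap. In IL10/2-Trikine it was at 51.5, 72.5, 40.2, 81.7 and 85.0 CPM, which overlapped with both. Mono-IL10 exceeded PBS by a log2 fold change of 1.16 ± 0.23 (SE; edgeR adjusted p = 0.00896, and 0.0432 or less with any 1 mouse left out). IL10/2-Trikine was 0.44 ± 0.28 above PBS (edgeR adjusted p = 0.378). It was -0.72 ± 0.22 against mono-IL10 (edgeR adjusted p = 0.0426), a call lost in 7 of 10 fits that left out 1 mouse (edgeR adjusted p up to 0.112) and with DESeq2 (adjusted p = 0.0534). The call was also lost with only both groups fitted (edgeR adjusted p = 0.0510). The mice whose loss ended the call were mono-IL10 replicates 1, 3 and 5 and IL10/2-Trikine replicates 1, 2, 3 and 4. With every mouse thinned to the lowest summed total, none of the 4 contrasts called between both cytokines passed, with edgeR adjusted p of 0.0567 for Lag3, 0.0599 for Pdcd1, 0.0673 for Tigit and 0.305 for Tox.

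The other members did not pass in any of the 3 contrasts. Ctla4 was at 437 CPM ± 44.4 (SD, n = 5) in PBS, 434 ± 72.6 under mono-IL10 and 358 ± 148 under IL10/2-Trikine, where replicate 1 stood above all other mice at 604 CPM and the other 4 mice lay below all PBS mice. Replicate 1 held 9 Treg among its 67 cells, against 4 of 134, 2 of 46, 1 of 48 and 4 of 105 in replicates 2 to 5. The part of this share in its values was not tested. Cd160 was at 42.7 CPM ± 26.3 (SD, n = 5) in PBS, 65.6 ± 14.5 under mono-IL10 and 47.5 ± 18.4 under IL10/2-Trikine, and its log2 fold change of mono-IL10 against PBS was 0.78 ± 0.30 (SE; edgeR adjusted p = 0.203). Entpd1 and Havcr2 had log2 fold changes of -0.55 ± 0.30 and -0.84 ± 0.53 (SE) for IL10/2-Trikine against PBS, with errors wide enough to leave both below the threshold (edgeR adjusted p = 0.288 and 0.369).

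**Figure D3:**
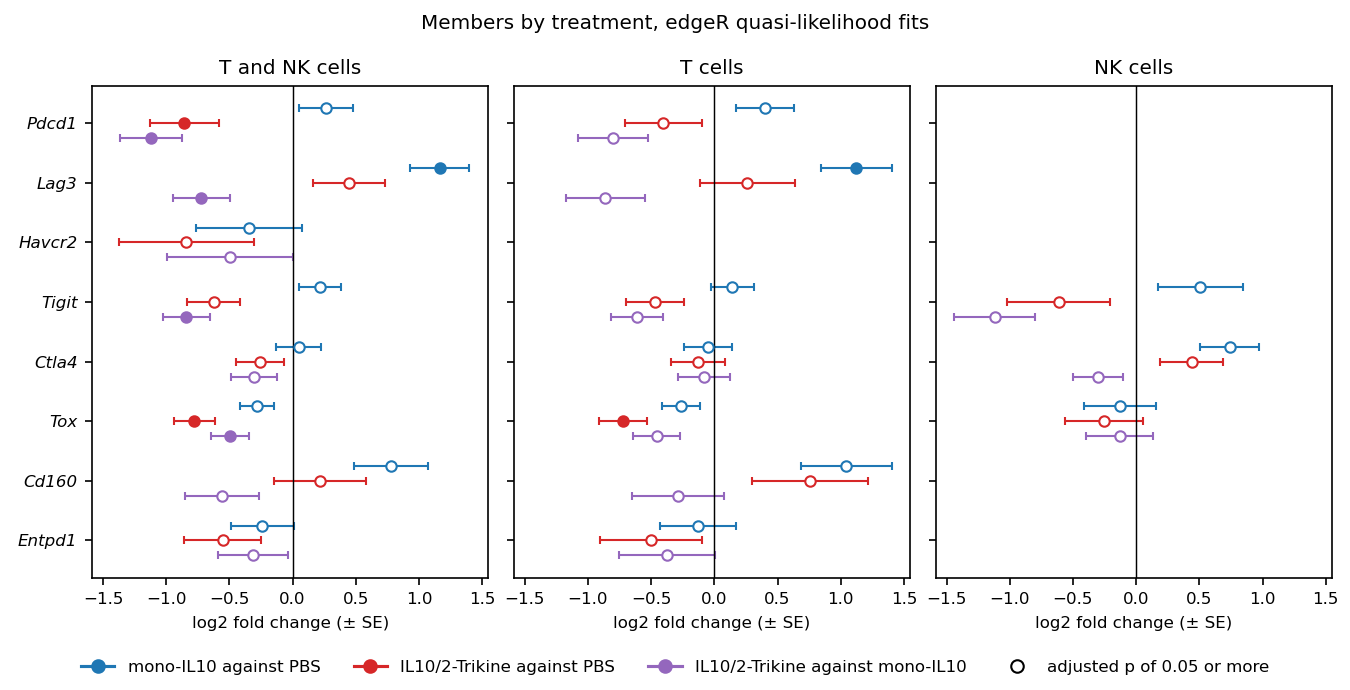
Log2 fold change ± SE (edgeR) of each gene in the 3 contrasts, for T and NK cells together, T cells and NK cells. Filled points passed an adjusted p of 0.05 and open points did not, and genes that did not pass the filter on low counts have no point. The Pdcd1 and Tigit values lie below 0 in both contrasts of IL10/2-Trikine, and the Lag3 values of mono-IL10 against PBS lie near 1.

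The makeup of the cells moved together with these levels. The 5 T cell markers (none at 0) summed to between 1415 and 2407 CPM in the PBS mice, between 2129 and 2500 in the mono-IL10 mice and between 599 and 1162 in the IL10/2-Trikine mice. The 5 NK markers (none at 0) summed to between 2040 and 3160 CPM in PBS, 2719 and 3237 under mono-IL10 and 4201 and 4982 under IL10/2-Trikine. Treg made up 51 of 516 PBS cells, 52 of 843 mono-IL10 cells and 24 of 725 IL10/2-Trikine cells, and naive_CD8T made up 38, 160 and 2 of them. Macrophage markers (7, none at 0) summed to between 337 and 503 CPM in PBS, 185 and 356 under mono-IL10 and 258 and 688 under IL10/2-Trikine.

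Each difference was also split into the part that the cluster shares of each mouse would give, with every cluster held at its pooled level, and the part left over. The pooled levels are taken over all 3 treatments, and some clusters came mostly from 1 library (naive_CD8T held 160 mono-IL10, 38 PBS and 2 IL10/2-Trikine cells). Makeup and treatment cannot be told apart in this split, and it is given as a description without a test. For Lag3 in mono-IL10 against PBS, the observed difference was 65.5 CPM, of which the shares gave 1.13 CPM and 64.4 CPM was left. For Lag3 in IL10/2-Trikine against mono-IL10, the shares gave -16.3 CPM of the -52.1 CPM observed, and -35.8 CPM was left. Tigit differed by -59.6 CPM between both cytokines, with -5.29 CPM from the shares and -54.3 CPM left, and by -51.9 CPM between IL10/2-Trikine and PBS, with -22.2 CPM and -29.8 CPM.

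For Pdcd1 both parts were of similar size. Between both cytokines the shares gave -34.3 CPM and -30.3 CPM was left, and against PBS the parts were -26.7 and -33.9 CPM. For Tox in IL10/2-Trikine against PBS, they were -43.7 and -51.8 CPM. Ctla4 had parts of opposite sign in the contrasts with PBS, with -112 CPM from the shares and 110 CPM left under mono-IL10 and -141 and 62.3 CPM under IL10/2-Trikine, whereas between both cytokines they were -29.1 and -47.6 CPM. Lag3 in IL10/2-Trikine against PBS also had parts of opposite sign, at -15.2 and 28.6 CPM.

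**Figure D4:**
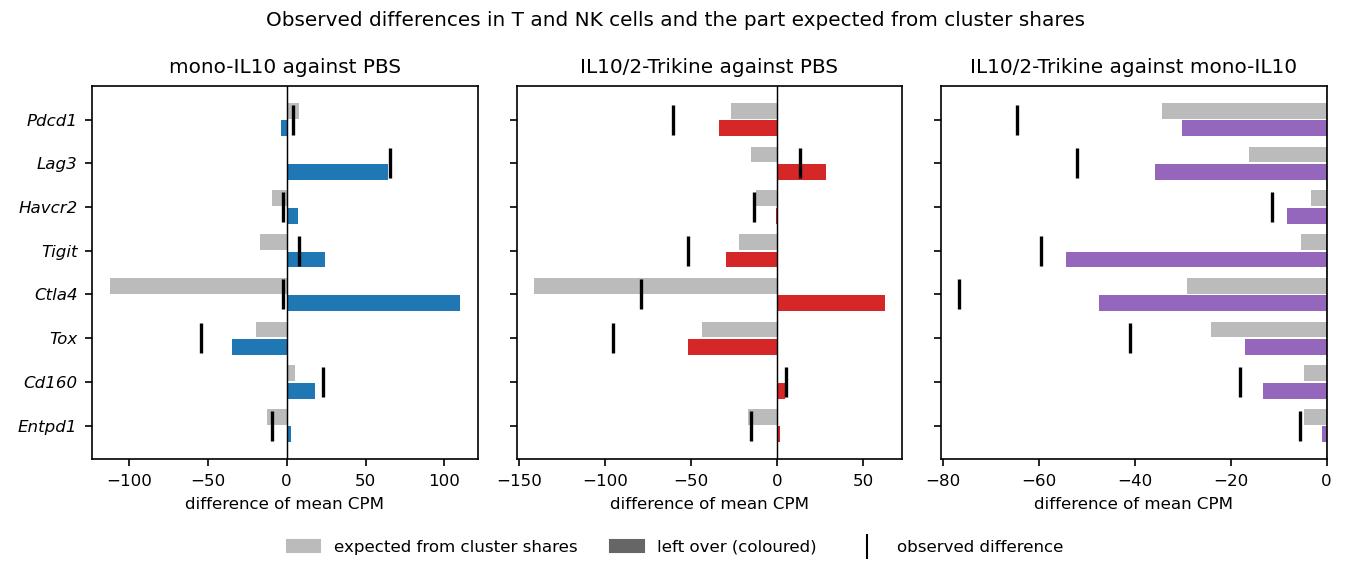
Difference between treatments in the level of each gene in T and NK cells (CPM; black tick, observed), split into the part expected from the cluster shares of each mouse (grey bars) and the part left over (coloured bars), in 3 panels for the 3 contrasts. The grey bar is near 0 for Lag3 in mono-IL10 against PBS and for Tigit in IL10/2-Trikine against mono-IL10, and the 2 bars of Ctla4 in mono-IL10 against PBS point in opposite directions.

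In T cells alone (3189 genes tested, Havcr2 not passing the filter on low counts), Tox was the only member called lower under IL10/2-Trikine than under PBS, and Lag3 the only one called higher under mono-IL10 than under PBS. Against PBS, Pdcd1 (94.1 CPM under IL10/2-Trikine, 148 in PBS), Tigit (96.5 and 148 CPM), Ctla4 and Entpd1 also had lower means without passing. Lag3 (76.4 and 67.0 CPM) and Cd160 (59.9 and 38.7 CPM) had higher means, also without passing. Under mono-IL10, Pdcd1, Tigit and Cd160 had higher means than in PBS, and Tox, Ctla4 and Entpd1 lower ones. The Pdcd1 log2 fold change under IL10/2-Trikine turned to 0.045 with the Cycling_T cells of more NK than T markers moved to NK cells. It was 0.17 without the Cycling_T cluster. The share of all genes lower in the first contrast was 3.89% (9.03% in either direction), and the share higher in the second was 1.07% (1.69% in either direction). Tox was at 222, 248, 317, 245 and 349.9 CPM in PBS and at 189, 131, 191, 214 and 141 CPM in IL10/2-Trikine, without overlap, a log2 fold change of -0.72 ± 0.19 (SE; edgeR adjusted p = 0.0183). It was lost without IL10/2-Trikine replicate 2 (edgeR adjusted p = 0.0944). When the Cycling_T cells with more NK than T markers were moved to the NK cells, Tox was at -0.61 (edgeR adjusted p = 0.0859), and without the Cycling_T cluster it was at -0.44 (edgeR adjusted p = 0.434). The fit without that cluster also lacked IL10/2-Trikine replicates 3 and 4, which were left with 7 cells each, under the limit of 10. The loss of the cluster and of these mice cannot be told apart there.

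Lag3 in T cells was at 49.3, 80.7, 57.7, 62.1 and 85.1 CPM in PBS and at 139, 96.8, 225, 88.1 and 203 CPM in mono-IL10. Every mono-IL10 mouse lay above every PBS mouse. The log2 fold change was 1.12 ± 0.28 (SE; edgeR adjusted p = 0.0437), and it was lost in 7 of 10 fits without 1 mouse (edgeR adjusted p up to 0.10004), namely those without PBS replicate 1, 3, 4 or 5 or mono-IL10 replicate 1, 3 or 5. After the same move of Cycling_T cells to the NK cells, Lag3 stood at 1.14 (edgeR adjusted p = 0.0534), and without that cluster at 1.24 (edgeR adjusted p = 0.0651). Cd160 in T cells was at 74.0, 68.2, 34.6, 7.31 and 9.46 CPM in PBS and at 63.5, 49.8, 84.2, 103 and 71.1 CPM in mono-IL10, a log2 fold change of 1.04 ± 0.36 that did not pass (edgeR adjusted p = 0.134).

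Between IL10/2-Trikine and mono-IL10, 0 of the 7 members tested in T cells passed with edgeR, where 12.4% of all genes were called. With DESeq2 0 passed as well, and its share of all genes is not given. An unadjusted p under 0.05 was reached by 4 of the 7 and by 25.8% of all genes. Their log2 fold changes were -0.80 for Pdcd1 (edgeR adjusted p = 0.0550), -0.61 for Tigit (0.0550), -0.86 for Lag3 (0.0702) and -0.46 for Tox (0.104). Without the Cycling_T cluster, the first 3 of these were smaller, at -0.34 for Pdcd1 (edgeR adjusted p = 0.620), -0.23 for Tigit (0.689) and -0.37 for Lag3 (0.699). That fit also lacked IL10/2-Trikine replicates 3 and 4, for too few cells. With only its NK-like cells moved, Pdcd1 was at -0.41 (edgeR adjusted p = 0.419), Lag3 at -0.52 (0.407) and Tigit at -0.52 (0.189). The T cell populations differed in makeup: the T markers of these cells summed to 3464 CPM in mono-IL10 and 1388 CPM in IL10/2-Trikine, and the NK markers to 864 and 2956 CPM. Cd8a and Cd8b1 together stood at 818 CPM in mono-IL10, 262 in PBS and 102 in IL10/2-Trikine.

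In NK cells (clusters NK and Cycling_NK), only Tigit, Ctla4 and Tox had enough counts to be tested, and mono-IL10 had 4 mice because replicate 3 had under 10 cells. None of the 3 passed with edgeR in any contrast. The edgeR share of 2355 genes called was 4.63% for IL10/2-Trikine against PBS, 2.51% against mono-IL10 and 0.297% for mono-IL10 against PBS. None passed with DESeq2, whose share of all genes is not given. At an unadjusted p under 0.05 these contrasts had 0, 1 and 1 members, and 18.1%, 16% and 11.6% of all genes. Tigit was at 141, 105, 203 and 103 CPM in the mono-IL10 mice and at 91.9, 38.7, 45.0, 89.9 and 75.6 CPM in the IL10/2-Trikine mice, all 5 of them lower. In PBS it ranged from 43.4 to 201 CPM. The log2 fold change against mono-IL10 was -1.12 ± 0.32 (SE; edgeR adjusted p = 0.0601).

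Ctla4 was read in NK cells at 269.7, 253, 282 and 279.9 CPM in mono-IL10, a narrow range, and at 59.0, 165, 169, 155 and 262 CPM in PBS. IL10/2-Trikine mice lay between 159.8 and 360.0 CPM. The log2 fold change of mono-IL10 against PBS was 0.74 ± 0.23 (SE; edgeR adjusted p = 0.180). The T markers in NK cells summed to between 122 and 503 CPM in PBS, 134 and 263 under mono-IL10 and 130 and 238 under IL10/2-Trikine, and Foxp3 was at 0 in all 3. Lag3 did not pass the filter on low counts in NK cells, so that the main fit gives no fold change for it there. Its mean was 22.5 CPM ± 17.6 (SD, n = 5) in PBS, 64.3 ± 17.4 (SD, n = 4) under mono-IL10 and 58.1 ± 26.5 (SD, n = 5) under IL10/2-Trikine.

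Whether the treatment differences of a member were unlike in T and NK cells was tested with edgeR on the sums of the same mice. Havcr2 had too few counts for this test. Of 21 such tests of the other 7 members, 0 passed, where 0.077%, 0.796% and 0.128% of all genes were called in the contrasts IL10/2-Trikine with PBS, IL10/2-Trikine with mono-IL10 and mono-IL10 with PBS. An unadjusted p under 0.05 was reached by 2, 0 and 1 of the 7 members and by 7.83%, 9.37% and 6.01% of all genes. A difference between the lineages was therefore not shown for these 7 genes.

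**Figure D5:**
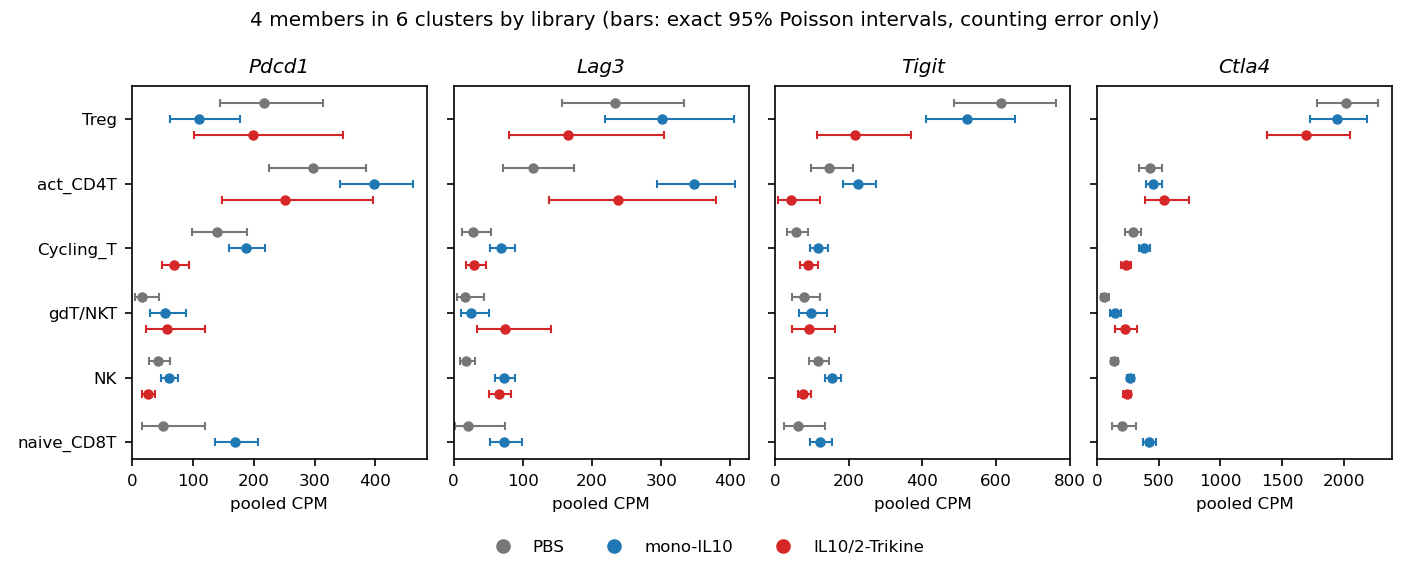
Level of Pdcd1, Lag3, Tigit and Ctla4 in 6 clusters (vertical axis) in each library, in CPM of the summed UMIs of all annotated cells of the cluster (horizontal axis). Bars are exact 95% Poisson intervals, which cover counting error only, and libraries with under 20 cells of a cluster are left out. In the NK cluster, Lag3 is lower in PBS than in both cytokine libraries, and in act_CD4T, Tigit is lower in IL10/2-Trikine than in mono-IL10.

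Within single clusters the libraries could be compared as pooled values, with 1 library per treatment. In act_CD4T, Lag3 was at 115 CPM in PBS, 347 under mono-IL10 and 237 under IL10/2-Trikine. In the NK cluster it was at 17.7, 73.3 and 66.0 CPM, so that both cytokine libraries stood above PBS. Tigit in Treg was at 613, 520.5 and 215 CPM and in act_CD4T at 146, 226 and 41.8 CPM, the last from 3 UMIs in 28 cells. The library given IL10/2-Trikine was thus lowest for Tigit in Treg, act_CD4T and NK. Pdcd1 in Cycling_T was at 139, 188 and 69.9 CPM, in the cluster whose IL10/2-Trikine cells mostly carried NK markers. In naive_CD8T, the 160 mono-IL10 cells held more than the 38 PBS cells of Pdcd1 (169 against 51.5 CPM), Ctla4 (422 against 206 CPM), Tox (198 against 51.5 CPM) and Cd160 (114 against 30.9 CPM, the latter from 3 UMIs). The PBS values of Pdcd1 and Tox also rest on few UMIs. Over the 9 mice with at least 5 cells of this cluster, Pdcd1 had a median of 0 CPM and a highest value of 233 CPM, so that its pooled level came from few mice.

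Tested over mice within clusters that held enough cells, 0 members passed with edgeR in any contrast. The share of all genes called was 3.06%, 6.34% and 1.27% in Cycling_T and 3.11%, 2.36% and 0.742% in NK (IL10/2-Trikine with PBS, IL10/2-Trikine with mono-IL10, mono-IL10 with PBS). It was 0.27% in act_CD4T for the contrast of both cytokines. For mono-IL10 against PBS it was 2.23% in naive_CD8T and 0% in each of Treg, gdT/NKT and naive_CD4T. In Cycling_T for IL10/2-Trikine against mono-IL10, the log2 fold change was -1.27 ± 0.41 (SE) for Pdcd1 (edgeR adjusted p = 0.0657) and -0.83 ± 0.27 for Ctla4 (edgeR adjusted p = 0.0633), and 3 of the 3 members tested had an unadjusted p under 0.05, as did 22.7% of all genes. In the NK cluster, Tigit was at -1.10 ± 0.35 in the same contrast (edgeR adjusted p = 0.0939) and Ctla4 at 0.81 ± 0.22 for mono-IL10 against PBS (edgeR adjusted p = 0.0761). In Treg, for mono-IL10 against PBS, Entpd1 was at 0.82 ± 0.44 (edgeR adjusted p = 0.968) and Ctla4 at 0.01 ± 0.23. The Treg cells of both groups thus had Ctla4 levels within the error of each other, at 1940 CPM ± 386 (SD, n = 5) in PBS and 1933 CPM ± 436 (SD, n = 3) in mono-IL10.

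Cells that carried a transcript were also counted, after each cell was thinned to 1500 UMIs so that depth was equal. The thinning to each depth was a single random draw, so that shares resting on few UMIs also carry the noise of that draw. In T cells, Lag3 was detected in 8.53% ± 1.35 (SD, n = 5) of the PBS cells and 17.3% ± 5.94 (SD, n = 5) of the mono-IL10 cells, a difference of 8.77 points with every mono-IL10 mouse above every PBS mouse (exact two-sided permutation p = 0.00794). Without thinning the shares were 16.2% and 31.8%, and at 1000 UMIs they were 5.05% and 14.96% (exact permutation p = 0.00794 at both). Tigit was detected in 22.0% ± 3.75 of the mono-IL10 T cells and 14.7% ± 4.28 of the IL10/2-Trikine T cells (SD, n = 5 each; exact permutation p = 0.0317). At 1000 UMIs these shares were 13.5% and 7.71% (exact permutation p = 0.0714). With the NK-like Cycling_T cells moved to the NK cells, an alternative chosen after seeing the data, they were 22.5% and 16.7% (exact permutation p = 0.0794), while the Lag3 difference was 9.45 points (exact permutation p = 0.00794). In NK cells, the share with Tigit was 21.2% in mono-IL10 and 8.90% in IL10/2-Trikine (exact permutation p = 0.0159, the smallest that 5 against 4 mice allow). At 1000 UMIs this difference of 12.3 points was 3.61 points (11.9% and 8.29%, exact permutation p = 0.175). The share of NK cells with Ctla4 was 32.0% in mono-IL10 and 20.2% in PBS (exact permutation p = 0.0159), and at 1000 UMIs it was 19.3% and 15.01% (exact permutation p = 0.317). Lag3 was found in 8.82% of the IL10/2-Trikine NK cells and 1.43% of the PBS NK cells (exact permutation p = 0.0238). At 1000 UMIs these shares were 5.39% and 5.095% (exact permutation p = 0.905), and without thinning 14.7% and 8.002% (exact permutation p = 0.127). The PBS NK cells with a mouse held 8 Lag3 UMIs in all. Their share was higher at 1000 than at 1500 UMIs, which comes from the random draws and not from depth. With the NK-like cells moved, the 3 differences in NK cells had an exact permutation p of 0.00794 for Tigit, 0.0317 for Ctla4 and 0.0238 for Lag3. That move also brought mono-IL10 replicate 3 from 9 cells to the limit of 10, so that 5 mice of that group were compared. None of the 3 lost its call after these changes, but none held in the single draw at 1000 UMIs. Of the T cell differences, that of Lag3 held in both alternatives and that of Tigit in neither. At 1500 UMIs, the members with an unadjusted exact permutation p under 0.05 were thus 0, 1 and 1 of 8 in T cells (IL10/2-Trikine with PBS, IL10/2-Trikine with mono-IL10, mono-IL10 with PBS) and 1 of 8 in each contrast in NK cells. The same test over all genes found in at least 1% of the cells gave 8.63%, 10.7% and 6.0% of 8796 genes in T cells and 7.7%, 6.11% and 4.25% of 8186 genes in NK cells, so that the counts of members were near the background.

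Droplets with tumor epithelial markers and no UMI of Ptprc or of the T and NK markers were read in the same libraries. This rule also leaves out droplets that took up free lymphocyte RNA with those markers, and tumor RNA dilutes the CPM. The values therefore do not measure the free RNA in the annotated cells. In 6024 such droplets of PBS, with a median of 18373 UMIs against 2780 in the annotated cells, 1.56% held a Lag3 UMI. The 8 genes stood at 3.61 CPM or lower in these droplets in all 3 libraries. Macrophage-marked droplets held Entpd1 at 339 CPM in PBS, 251.7 under mono-IL10 and 213 under IL10/2-Trikine and Havcr2 at 85.3, 47.2 and 43.7 CPM. The part of macrophage molecules in the Entpd1 and Havcr2 values was not tested.

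Detection of several of the 7 surface molecules in the same cell differed between clusters. After thinning, 2 or more of them were detected in 69.3% of Treg cells and 46.5% of act_CD4T cells, but in 11.7% of the NK cluster and 6.80% of gdT/NKT. In T cells the mean share over mice was 26.9% ± 4.85 in PBS, 36.7% ± 4.85 under mono-IL10 and 20.8% ± 6.77 under IL10/2-Trikine (SD, n = 5 each). The mono-IL10 mice ranged from 30.8% to 44.2% and the IL10/2-Trikine mice from 10.5% to 27.5%, without overlap. With the NK-like Cycling_T cells moved, the means were 28.3% ± 6.01 in PBS, 37.6% ± 4.83 under mono-IL10 and 28.3% ± 6.82 under IL10/2-Trikine, and the last 2 overlapped (32.0% to 45.3% and 18.2% to 37.04%). No test was run on this combined measure. Among T cells with a Lag3 UMI, 28.9% also held Pdcd1 and 36.7% Tigit, against 15.8% and 16.3% of the T cells without Lag3. Of 49 T cells with Havcr2, 79.6% held Ctla4, against 39.0% of the rest. Some pairs went the other way. Cd160 was found in 3.13% of the cells with Lag3 and 7.78% of those without, and Entpd1 in 6.70% of the cells with Pdcd1 and 8.31% of those without.

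The genes with the most similar pattern were sought among 5231 genes over 20 profiles, each the cells of 1 cluster in 1 library. These correlations describe profiles that share libraries and cells. For Pdcd1 they were Cxcr6, a chemokine receptor of tissue-resident lymphocytes (Pearson r = 0.93), Adam19 (0.86) and Gtdc1 (0.81). For Tigit they were Itgb8, an integrin chain of Treg that activates TGF-beta (r = 0.83), Hopx (0.83) and Cast (0.81). For Cd160 they were Jaml (r = 0.93), Evl (0.90) and Klrk1, which encodes the activating receptor NKG2D (0.88). Tox was most like Ccser2 (r = 0.89), Tnfrsf4, which encodes the costimulatory receptor OX40 (0.88), and Eea1 (0.87). Havcr2 was most like Penk (r = 0.94), Mdfic (0.93) and Sv2c (0.93), Ctla4 like Lamc1, Vmp1 and Pigx (0.93 each), Lag3 like Srp14 (0.89), Sdf4 (0.87) and Ucp2 (0.87), and Entpd1 like Med15 (0.87), Ccdc88c (0.87) and Anxa11 (0.86).

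Genes that work with the checkpoint receptors were read from 5 lists, in T and NK cells together. Each list's count is to be read against the share of all genes called in these cells, which for IL10/2-Trikine was 9.42% against PBS (4.79% lower) and 8.86% against mono-IL10 (4.94% lower). It was 1.11% between mono-IL10 and PBS. Of 9 counterparts that deliver costimulation, 8 were tested. Against PBS, 5 were lower under IL10/2-Trikine and 3 did not pass, and against mono-IL10, 4 were lower and 4 did not pass, with median log2 fold changes of -0.61 and -0.56. Against PBS, Tnfrsf18 (GITR) was at -1.02 ± 0.17 (SE; edgeR adjusted p = 0.000393), Tnfrsf4 at -1.42 ± 0.30 (edgeR adjusted p = 0.00366), Icos at -0.84 ± 0.24 (edgeR adjusted p = 0.0277) and Cd28 at -0.65 ± 0.17 (edgeR adjusted p = 0.0150). Against mono-IL10, Cd2 was at -0.76 ± 0.16 (edgeR adjusted p = 0.00364). The T cell marker sums given above fell in the same mice, and the part of that change in these values was not tested. In T cells alone 2 of 8 were lower against PBS (9.03% of all genes called, 3.89% lower) and 1 against mono-IL10 (12.4% called). In NK cells 0 of 6 passed with edgeR in any contrast (4.63%, 2.51% and 0.297% called).

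Among 12 other inhibitory receptors, 6 were tested, with 1 higher and 1 lower in both contrasts of IL10/2-Trikine. Cd5, a negative regulator of T cell receptor signalling, was at -1.92 ± 0.35 (SE) against PBS (edgeR adjusted p = 0.00115), and Cd244a, the NK receptor 2B4, was at 1.17 ± 0.22 (edgeR adjusted p = 0.00125). In the same mice the T marker sums given above were lower and the NK marker sums higher than under PBS, and their part in the values of Cd5 and Cd244a was not tested. Of 14 ligands and partners, 6 were tested. Hmgb1, a TIM-3 ligand and chromatin protein, was higher at 0.38 ± 0.10 (edgeR adjusted p = 0.0132), and Nt5e, which encodes CD73 and acts after CD39, was lower at -0.58 ± 0.18 (edgeR adjusted p = 0.0393). Against mono-IL10, only Hmgb1 of that list passed. Of 9 phosphatases and adaptors, all tested, the ubiquitin ligase Cblb alone passed, at -0.51 ± 0.13 against PBS (edgeR adjusted p = 0.0110) and -0.44 ± 0.12 against mono-IL10 (edgeR adjusted p = 0.0253).

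Of 20 transcription factors tied to dysfunction or stemness, 15 were tested, and 3 were lower under IL10/2-Trikine than under PBS, where 4.79% of all genes were lower. They were Tcf7, the factor of stem-like T cells (-0.88 ± 0.25 SE, edgeR adjusted p = 0.0276), Bach2 (-0.57 ± 0.15, edgeR adjusted p = 0.0202) and Ikzf2 (-0.63 ± 0.12, edgeR adjusted p = 0.00161). In T cells and NK cells together, 0 of the 15 passed against mono-IL10 with edgeR. The annotated cells under IL10/2-Trikine included 2 of naive_CD8T and 1 of naive_CD4T, against 38 and 30 under PBS, and fewer Treg (24 of 725 against 51 of 516), and the part of these shares in the 3 values was not tested. Mono-IL10 against PBS, with 1.11% of all genes called, had 2 lower, Ikzf2 at -0.75 ± 0.12 (edgeR adjusted p = 0.000548) and Bach2 at -0.58 ± 0.14 (edgeR adjusted p = 0.0454). In NK cells 2 of 12 were lower under IL10/2-Trikine than under PBS (4.63% of all genes called), Tcf7 at -1.54 ± 0.35 (edgeR adjusted p = 0.0103) and Bach2 at -0.86 ± 0.20 (edgeR adjusted p = 0.0121), and Tcf7 was the 1 called against mono-IL10 (-1.25 ± 0.31, edgeR adjusted p = 0.0334, 2.51% called). In T cells 0 of 13 passed against PBS with edgeR, and between both cytokines 1 was higher under IL10/2-Trikine, Ikzf2 at 0.53 ± 0.12 (edgeR adjusted p = 0.00506, 12.4% called). Mono-IL10 against PBS had Ikzf2 (-0.80 ± 0.12) and Bach2 (-0.72 ± 0.19) lower in T cells (edgeR adjusted p = 0.000263 and 0.0438, 1.69% called). Treg made up 52 of 843 cells under mono-IL10 against 51 of 516 under PBS, and naive_CD8T 160 against 38 of them. The part of these shares in the values of both genes was not tested, nor was that of the NK-like Cycling_T cells in Ikzf2 between both cytokines.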

How the data were processed

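The 5' single-cell libraries and their hashtag libraries were processed by the authors with Cell Ranger 9.0.1 against GRCm39, and DESeq2 1.46.0 and Seurat 5.1.0 are named in the submitters' processing notes. The matrices, as deposited, give raw UMI counts for every gene in every barcode. The deposited cell table gives the cluster of each annotated cell and, where its hashtag was called, the mouse, with cells called doublets already removed, and percent of mitochondrial reads. It lists 9942 cells, of which 7858 belong to a library not analysed here. The barcode lists of the 3 libraries held 44412, 30528 and 55504 barcodes.

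Counts of annotated cells were summed per mouse, with at least 10 cells per mouse (5 within clusters, with at least 3 mice per group). The sums of T and NK cells together held between 124258 and 995020 UMIs and 35 to 215 cells. T cell sums went down to 46789 UMIs and 17 cells and NK cell sums to 33913 UMIs and 10 cells, which limits genes with few counts. They were filtered with filterByExpr, scaled by TMM and tested with the quasi-likelihood test of edgeR 4.0.16 in R 4.3.3, with Benjamini-Hochberg adjustment over all genes and a threshold of 0.05. SE is of the log2 fold change. NK cells were the clusters NK and Cycling_NK, and T cells all others. Exact two-sided permutation tests of the shares of cells with a UMI were run over mice with scipy 1.17.1. The split by cluster shares is given without its test, because its cluster levels include the treatments compared. DESeq2 1.42.0, its size factors in edgeR, no filter, a replicate block, thinned totals, 20 cells per mouse, fits of 2 groups, other sets of cells and leaving out each mouse were alternatives. The scripts were tested on simulated counts.

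Same hashtag numbers do not pair mice: no source ties them, and the correlations of deviations from the group means lay between -0.165 and 0.153. All 8 members were named, with up to 4 genes per list and contrast with the lowest p and the 3 genes most like each member. Members, marker genes and lists were chosen with earlier results of these data known. Profiles were log2(CPM + 10) of clusters with at least 20 cells in a library, and the genes compared with the members had at least 200 UMIs. Havcr2 itself, with 174 UMIs, was under that limit. Epithelial-marked and macrophage-marked droplets had at least 1000 genes, at most 10% mitochondrial UMIs and at least 10 UMIs of their markers. Thinning to 1500 UMIs left out 1 cell.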

Additional observations from a re-analysis of the deposited data

Results flagged for a closer look

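Single mice stood apart in 7 of the 72 groups of mice examined, by the ratio of a mouse's gap to the range of its group. The rule is set to flag about 1 group in 20 by chance. That rate does not hold for groups with most mice at 0, so that the 7 cannot be read against it. In T and NK cells together these were IL10/2-Trikine replicate 1 for Havcr2 at 42.1 CPM and mono-IL10 replicate 2 for Entpd1 at 70.1 CPM, both above the rest of their groups. In T cells they were PBS replicate 5 for Pdcd1 at 217 CPM and IL10/2-Trikine replicate 1 for Havcr2 at 71.1 CPM, the same mouse that was high for Ctla4. In NK cells they were IL10/2-Trikine replicate 4 for Pdcd1 at 79.9 CPM and PBS replicate 4 for Havcr2 at 62.2 CPM. IL10/2-Trikine replicate 3 was flagged for Havcr2 at 14.999 CPM, from 1 UMI. The other mice of both Havcr2 groups were at 0, where the ratio flags any UMI in a single mouse.

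Macrophage-marked droplets, which are no part of the annotated T and NK cells, held more of 6 genes in the IL10/2-Trikine library than in the PBS library and less of Entpd1 (213 against 339 CPM) and Havcr2 (43.7 against 85.3 CPM). Lag3 was at 13.4 CPM against 6.33, Ctla4 at 18.3 against 5.37, Tox at 7.59 against 1.92 and Tigit at 4.52 against 0.812. Pdcd1 was at 2.05 CPM against 0.719 and Cd160 at 1.45 against 0.166. With 1 library per treatment these differences were not tested over mice. The droplets also differed in depth, with a median of 2965 UMIs in the IL10/2-Trikine library and 5433 in the PBS library. The part of free lymphocyte RNA in these values was not tested. The share of all genes that differed in the same way is not given, so that the count of 6 has no background.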

How the results depend on the processing

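Of 425 log2 fold changes recomputed under alternatives other than leaving out a mouse, 377 kept their direction and side of the threshold, and of 534 with 1 mouse left out, 479 did. In T and NK cells together every mouse had 35 or more cells. The alternative of at least 20 cells therefore repeated the main fit there, and its values counted as kept by construction. In T and NK cells, the number of the 8 genes called for IL10/2-Trikine against mono-IL10 was 4, but 2 with DESeq2 and 0 with totals thinned. Leaving out 1 mouse gave 1 to 3 calls against PBS, 2 to 4 against mono-IL10 and 1 to 1 for mono-IL10 against PBS. In T cells the counts were 1, 0 and 1, and the range without 1 mouse was 0 to 1, 0 to 3 and 0 to 1. Against PBS the T cell count was 0 without Cycling_T and 0 with its NK-like cells moved. The fits without Cycling_T also lacked IL10/2-Trikine replicates 3 and 4, which had under 10 cells left. Against mono-IL10 it was 2 with DESeq2 size factors, 3 with no filter, 2 with the replicate block and 3 without naive_CD8T, an alternative chosen after seeing the data. For mono-IL10 against PBS it was 2 with no filter and 0 with thinned totals, with at least 20 cells, without Cycling_T or with NK-like cells moved. In NK cells the counts were 0 and the range without 1 mouse was 0 to 0, 0 to 1 and 0 to 0. Against mono-IL10 it was 1 with no filter and 1 with only both groups fitted, and for mono-IL10 against PBS it was 2 with no filter. The replicate block gave 3, 3 and 1 calls in T and NK cells, 1, 2 and 1 in T cells and 0 in NK cells. Share differences with an unadjusted p under 0.05 numbered 3 in NK cells (8 without thinning, 0 at 1000 UMIs) and 2 in T cells (10 without thinning, 4 at 1000 UMIs), and 3 and 2 with NK-like Cycling_T cells moved, an alternative chosen after seeing the data. The share of all genes called under each alternative is not given here. The counts in this paragraph therefore show only how far the calls move and are no result about the members. DESeq2 gave Lag3 no adjusted p for mono-IL10 against PBS in T and NK cells or T cells. The causes were not tested.

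Directions turned only for members that had not passed. The values without Cycling_T again lack IL10/2-Trikine replicates 3 and 4. In T cells, IL10/2-Trikine against PBS turned to 0.17 (without Cycling_T) and 0.045 (NK-like cells moved) for Pdcd1 and to 0.079 (at least 20 cells), 0.56 (without Cycling_T), 0.21 (NK-like cells moved) and 0.066 (without Treg) for Ctla4. Against mono-IL10, Ctla4 turned to 0.15 (thinned totals), 0.13 (at least 20 cells), 0.66 (without Cycling_T) and 0.34 (NK-like cells moved), and Entpd1 to 0.11 (NK-like cells moved). Mono-IL10 against PBS turned to 0.013 (no filter) and 0.56 (without Treg) for Ctla4 in T cells, to -0.019 (thinned totals) for Tigit in T and NK cells, and to 0.096 (no filter) and 0.050 (at least 20 cells) for Tox in NK cells. Leaving out 1 mouse gave ranges across 0 for Cd160 against PBS under IL10/2-Trikine (-0.069 to 0.49) and Ctla4 under mono-IL10 (-0.0049 to 0.14) in T and NK cells, and for Tox in NK cells (-0.27 to 0.066 between both cytokines, -0.32 to 0.040 for mono-IL10 against PBS). In T cells it did so for Lag3 under IL10/2-Trikine against PBS (-0.071 to 0.43), Ctla4 between both cytokines (-0.45 to 0.035), Ctla4 under mono-IL10 against PBS (-0.12 to 0.069) and Entpd1 in the same contrast (-0.31 to 0.042).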
